A study of Homo sapiens with 12 samples.

Results

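The genes described here are those whose symbol is ZNF followed by a number, the largest naming group of human zinc finger proteins. Their expression was followed in U937 cells exposed to MC2494 or EX527 and in control cells. Members were selected on their detection values: a ZNF probe was kept when its detection p-value, which sets its signal against that of negative control beads, was under 0.05 on at least 4 of 12 arrays. Of 504 ZNF probes for 421 genes on the array, 285 probes for 248 genes were kept, out of 9956 genes tested in all. The other 219 probes were not kept, 193 of them because they were detected on 0 arrays, and 173 genes had no kept probe. The 10 ZNF probes detected on 4 arrays, just inside the limit, had mean raw signals of 78.6 to 90.6, and the 7 detected on 3 arrays, just outside it, had 77.5 to 83.1.

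Zinc finger proteins named in this way often, but not always, bind DNA through tandem C2H2 fingers, each of which reads a few bases. Many carry a KRAB domain, which recruits the scaffold protein TRIM28 and through it histone methyltransferases, HP1 proteins and histone deacetylases, and a large share of KRAB proteins silence transposable elements. Their genes multiplied by tandem duplication and stand in clusters, most of all on chromosome 19.

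The arrays were 4 of cells given MC2494, described by the submitters as a sirtuin inhibitor, and 4 of cells given EX527, an inhibitor of the deacetylase SIRT1, set against 4 control arrays. Exposure to the compounds lasted 24 h, and the control arrays are labelled as control with no exposure time. Doses are not given in the labels, so the 2 compounds are compared as used and not at matched doses. U937 is an established human line with monocytic features, labelled here as acute myeloid leukemia, and all groups are of this 1 line. The labels number the arrays of a group 1 to 4 but do not say whether they came from separate cultures, so p-values rest on the spread among arrays of a group, and that spread may be technical.

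Genes are called measured, here and below, when a probe was detected on at least 4 arrays. A gene not measured may be on the array and undetected. Of 10 monocytic markers, 8 were measured and all 8 were detected on every array, while CD33 and MPO were not measured. Fewer markers of other cell types were measured: 3 of 8 for lymphocytes and 0 of 6 for red cells and megakaryocytes. For epithelium and fibroblasts it was 1 of 7. Of the 3 for lymphocytes, 2 were detected on all 12 arrays, and CD79A averaged 9.61 on control arrays, beside 9.36 for CD68. Log2 differences of the monocytic markers against control ran from -1.83 (LYZ) to 1.18 (CD68) with MC2494. With EX527 they ran from -1.02 (CSF1R) to 0.27 (CD68). The lymphocyte markers measured did not move together: log2 differences against control with MC2494 were -1.70 for CD79A, 0.42 for CD79B and 0.04 for MS4A1, and with EX527 -1.59, -0.26 and 0.16 in the same gene order. Mean raw signal was 623.4 to 694.6 on MC2494 arrays, 710.7 to 783.2 on EX527 arrays and 764.0 to 792.6 on control arrays, so it moved with treatment, and its part in the results was not tested. Signals below are log2 values after quantile normalization, which removes such a difference and makes each change relative to the other genes.

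ZNF genes were higher more often than lower with both compounds. With MC2494 against control, 110 of 248 rose (44.4%, against 37.5% of all genes tested) and 48 fell (19.4%, against 35.0%), by limma's moderated test with Benjamini-Hochberg adjustment over all genes and a threshold of 0.05. With EX527 against control, 84 rose (33.9%, against 25.9%) and 44 fell (17.7%, against 31.0%). All genes were split evenly by signal into low, middle and high sets, with 129 of the 248 ZNF genes in the low set. There 36 rose and 14 fell with EX527 (27.9% and 10.9%, against 19.2% and 21.3% of all genes). In the middle set 38 of 89 rose and 20 fell. In the high set 10 of 30 rose and 10 fell (33.3% each, against 28.4% and 34.5%), so rises did not outnumber falls there. With MC2494 rises outnumbered falls in each set: 45 to 22, 51 to 20 and 14 to 6. As shares of ZNF genes these were 34.9% and 17.1%, 57.3% and 22.5%, and 46.7% and 20.0%. Over all genes the shares were 31.3% and 27.4%, 41.0% and 38.5%, and 40.2% and 39.3%, so rises outnumbered falls there too. The median log2 difference of ZNF genes was 0.15 with MC2494 and 0.06 with EX527, beside 0.01 and -0.04 for all genes. Both comparisons share the 4 control arrays.

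The shift was small for most genes. Against control, a change of at least 2-fold was called for 13 ZNF genes higher with MC2494 (5.24%, against 6.51% of all genes) and 1 lower (0.403%, against 5.72%), with ZNF514, whose lower bound is under 2-fold, not counted. With EX527, 7 were at least 2-fold higher (2.82%, against 2.03%) and 0 lower, against 0.452% of all genes.

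The median of the 248 genes was 7.13, 7.05, 7.17 and 7.13 on the MC2494 arrays, 6.98, 6.99, 6.96 and 7.00 on the EX527 arrays and 6.88, 6.86, 6.89 and 6.90 on the control arrays. The 3 groups did not overlap. The medians of all 9956 genes lay between 8.33 and 8.36 on every array. Quantile normalization makes these nearly equal, so they are no contrast to the ZNF medians. Without scaling between arrays the ZNF medians were 7.00 to 7.20 on MC2494 arrays, 7.02 to 7.11 on EX527 arrays and 6.79 to 6.89 on control arrays. Both compounds were still above control, but MC2494 and EX527 then overlapped.

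**Figure D1:**
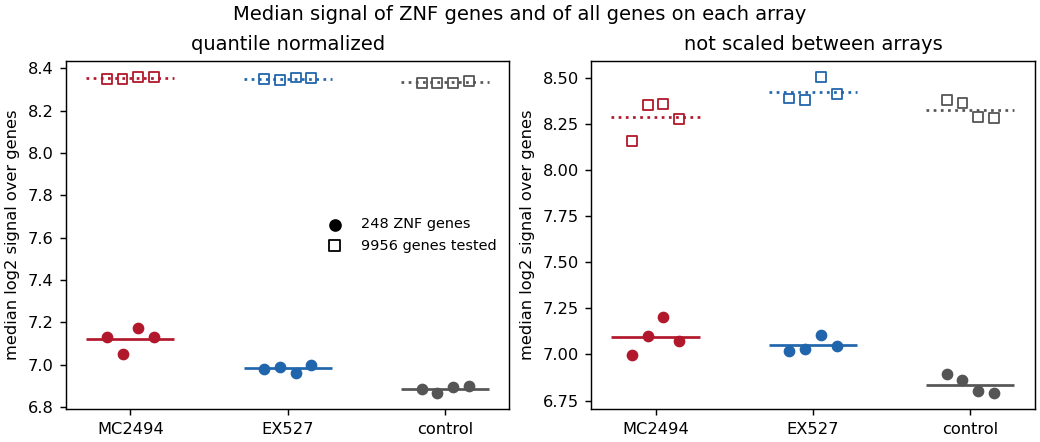
Median log2 signal on each array (points; lines are group means) of the 248 ZNF genes (filled) and the 9956 genes tested (open squares), for MC2494, EX527 and control, after quantile normalization (left) and without scaling between arrays (right). ZNF medians on control arrays lie below those of both compounds in each panel, and MC2494 and EX527 separate only on the left.

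Detection itself differed between groups, which bears on how members were selected. Of the 248 genes, 15 were not detected on any control array, 1 (ZNF514) on any EX527 array and 0 were undetected on all MC2494 arrays. Those 15 could enter only through the treated arrays and had to be higher there. Counts and medians over the 248 genes are therefore a description. Among the 199 genes detected on all 12 arrays, 90 rose and 43 fell with MC2494 (45.2% and 21.6%, against 38.6% and 37.3% of 8607 such genes). With EX527, 65 rose and 42 fell (32.7% and 21.1%, against 27.3% and 33.5%).

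**Figure D2:**
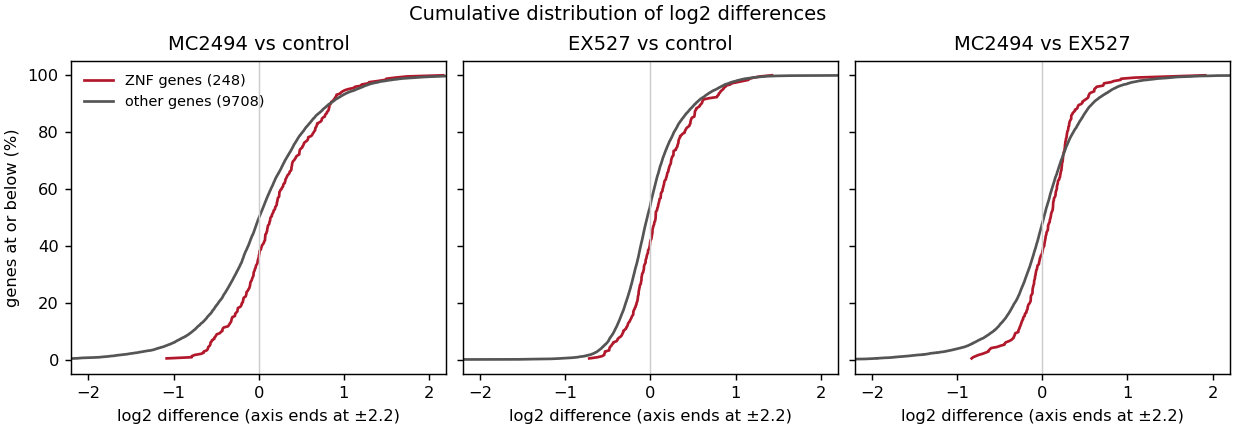
Cumulative share of genes (y axis, percent) by log2 difference (x axis) for the 248 ZNF genes (red) and the 9708 other genes (grey), in the 3 comparisons; genes beyond the ends of the axis are not drawn. The ZNF curve starts further to the right, with 1 gene at least 2-fold lower with MC2494 and 0 with EX527 against control.

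MC2494 and EX527 were also set against each other directly. ZNF genes higher with MC2494 than with EX527 numbered 88 (35.5%, against 33.1% of all genes), and 39 were lower (15.7%, against 28.9%), so that 69.3% of the calls were higher. That split depended on scaling: it was 57.9% higher with median scaling and 47.3% with none. The share over all genes moved too: 53.4% of calls were higher, beside 41.9% with median scaling and 35.9% with none. At least 2-fold, 2 genes, ZNF425 and ZNF467, were higher (0.806%, against 2.8%) and 0 lower, against 3.66%.

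Chromosome 19 holds 107 of the 248 genes, and the other genes tested there are set beside them. With MC2494, 49 of the 107 rose and 15 fell (45.8% and 14.0%), beside 29.7% and 45.3% of the 603 other genes tested on chromosome 19. With EX527, 41 rose and 17 fell (38.3% and 15.9%), beside 10.1% and 49.4% of those other genes. Of the 141 ZNF genes elsewhere, 61 rose and 33 fell with MC2494, and 43 rose and 27 fell with EX527. Why chromosome 19 genes other than ZNF genes were lower was not tested. Some of the 107 ZNF genes, ZNF230, ZNF235 and ZNF254 among them, were detected on no control array. They entered only through the treated arrays, so the counts of ZNF genes given here are descriptions.

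ZNF425 and ZNF467, both on chromosome 7, had the largest rises with MC2494. ZNF425 encodes a KRAB protein, and the mouse counterpart of ZNF467 is known for steering marrow stromal cells between fat and bone cells. ZNF425 had 8.03, 8.07, 7.86 and 7.78 on MC2494 arrays, 6.06, 6.00, 6.06 and 5.96 on EX527 arrays and 5.74, 5.57, 5.75 and 6.01 on control arrays. The MC2494 arrays stood apart from both other groups, which overlapped. Its log2 difference was 2.17 (SE 0.088) with MC2494 against control (limma, adjusted p = 4.3e-11), 0.25 with EX527 against control (adjusted p = 0.0237) and 1.91 with MC2494 against EX527 (adjusted p = 2.64e-10).

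ZNF467 had 8.10, 7.60, 8.00 and 7.81 on MC2494 arrays, 6.41, 6.34, 6.28 and 6.49 on EX527 arrays and 6.07, 5.85, 6.17 and 6.46 on control arrays. EX527 and control arrays overlapped and MC2494 arrays did not overlap with either. The log2 difference was 1.74 (SE 0.122) with MC2494 against control, and MC2494 was 2.83-fold above EX527 (limma, adjusted p = 1.13e-08 and 9.84e-08). With EX527 against control it was 0.24, with a 95% interval of -0.02 to 0.50.

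ZNF514 was detected on all 4 MC2494 arrays and on 0 EX527 or control arrays, so only a lower bound can be given. It was at least 1.86-fold higher with MC2494 than in control and at least 1.87-fold higher than with EX527. It passed the detection filter only through the MC2494 arrays, so these values are a description and no test is given. ZNF641, ZNF589 and ZNF362 also rose with MC2494 and did not pass the test with EX527: their log2 differences were 0.85, 0.82 and 0.80 with MC2494 and -0.08, -0.10 and -0.04 with EX527 against control. ZNF589 is a KRAB gene first described in blood stem cells.

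A second set of genes rose with both compounds. ZNF518A had 8.65, 8.59, 8.80 and 8.89 on MC2494 arrays, 8.73, 8.64, 8.74 and 8.61 on EX527 arrays and 7.25, 7.20, 7.35 and 7.20 on control arrays. Both compounds lay above every control array and overlapped each other. The log2 difference was 1.48 with MC2494 and 1.43 with EX527 against control (limma, adjusted p = 1.66e-10 and 2.41e-09). Between the compounds it was 0.06, with a 95% interval of -0.09 to 0.21.

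ZNF277 had 10.59, 10.73, 10.74 and 10.78 on MC2494 arrays, 10.31, 10.33, 10.47 and 10.37 on EX527 arrays and 9.25, 9.18, 9.22 and 9.19 on control arrays. The 3 groups did not overlap, with a 2.83-fold rise with MC2494 and a 2.23-fold rise with EX527 against control and a log2 difference of 0.34 between MC2494 and EX527 (limma, adjusted p = 0.000106 for the last). ZNF721 showed a wider gap between the compounds: 9.05, 8.88, 9.01 and 8.88 on MC2494 arrays, 8.11, 8.23, 8.24 and 8.01 on EX527 arrays and 7.32, 7.33, 7.36 and 7.37 on control arrays. Its log2 differences were 1.61 with MC2494 and 0.80 with EX527 against control, and 0.81 between the compounds (limma, adjusted p = 6.74e-08). ZNF800, ZNF770, ZNF12 and ZNF280B rose with both compounds, by 1.30, 1.21, 1.12 and 1.13 with MC2494 and by 0.84, 0.82, 0.95 and 0.52 with EX527 on the log2 scale.

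Some rises were larger with EX527. ZNF684, ZNF451 and ZNF195 rose by 0.83, 0.64 and 0.69 with MC2494 and by 1.15, 1.08 and 0.94 with EX527, and were lower with MC2494 than with EX527 (limma, adjusted p = 0.000427, 0.000218 and 0.00232). ZNF451 encodes a SUMO ligase. ZNF93, a KRAB gene known to bind LINE-1 elements, had 5.09, 5.71, 5.62 and 5.34 on MC2494 arrays, 6.33, 6.32, 6.38 and 5.98 on EX527 arrays and 5.58, 5.41, 5.42 and 5.18 on control arrays. Only EX527 arrays stood apart, with a log2 difference of 0.86 with EX527 against control (adjusted p = 7.8e-05) and 0.04 with MC2494 against control (adjusted p = 0.784). ZNF681 and ZNF121 rose with EX527, by 0.69 and 0.58, and had log2 differences of -0.01 and -0.25 with MC2494 that did not pass the test.

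**Figure D3:**
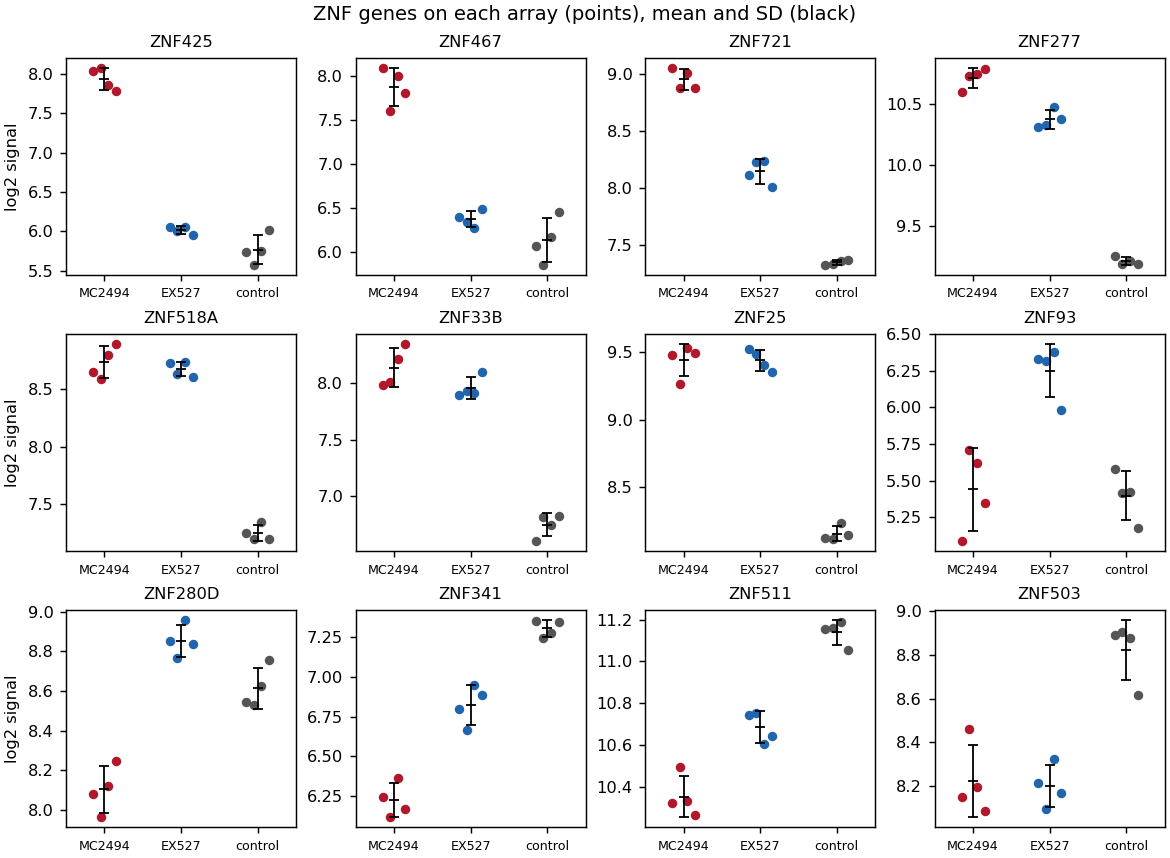
Log2 signal of 12 ZNF genes on the 4 arrays of MC2494, EX527 and control (points), with group mean and SD (black); each panel has its own y axis, and levels are not compared between panels. ZNF425 and ZNF467 are high on MC2494 arrays, ZNF518A, ZNF33B and ZNF25 on arrays of both compounds, and ZNF341, ZNF511 and ZNF503 are lower with both than in control.

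Falls were smaller. ZNF341, which is needed for normal STAT3 expression, had 6.24, 6.12, 6.36 and 6.17 on MC2494 arrays, 6.80, 6.66, 6.95 and 6.89 on EX527 arrays and 7.35, 7.25, 7.28 and 7.35 on control arrays. The groups did not overlap. It was the 1 ZNF gene at least 2-fold lower with MC2494, with log2 differences of -1.08 with MC2494 and -0.48 with EX527 against control and -0.60 between MC2494 and EX527 (limma, adjusted p = 5.12e-09, 5.17e-05 and 4.09e-06).

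ZNF503, a repressor known from nervous system development, fell by 0.60 with MC2494 and by 0.62 with EX527 on the log2 scale, and ZNF174, a SCAN domain protein, fell by 0.61 and 0.72. Of the other 2 ZNF174 probes, each detected on all 12 arrays, 1 also fell with both compounds (by 0.68 and 0.60), and the other fell by 0.61 with EX527 but had -0.0021 with MC2494 (limma over all kept probes, adjusted p = 0.98). The ZNF174 probes thus disagree on MC2494, and the last one was higher with MC2494 than with EX527, by 0.60 (adjusted p = 2.75e-06). For ZNF503 the 95% interval between the compounds was -0.17 to 0.21. ZNF511, ZNF414, ZNF416 and ZNF584 fell with MC2494 by 0.79, 0.79, 0.75 and 0.68 and with EX527 by 0.45, 0.44, 0.48 and 0.57.

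In 6 genes, by the brightest probe of each, both compounds passed the test against control in opposite directions. ZNF280D had log2 differences of -0.51 with MC2494 and 0.24 with EX527, and ZNF280C of -0.33 and 0.33. The other 2 ZNF280D probes had -0.58 and -0.39 with MC2494 and 0.14 and 0.31 with EX527, the 0.14 not passing the test. ZNF512 had 0.38 with MC2494, a call lost with median scaling (0.16) or none, and -0.26 with EX527. ZNF2, ZNF32 and ZNF326 had 0.57, 0.38 and -0.42 with MC2494 and -0.15, -0.16 and 0.21 with EX527. Each of those last 3 EX527 calls was lost under several other settings, ZNF2 when control array 3 was left out among them. For ZNF32 the MC2494 call rests on 1 of 3 probes: the other 2 had -0.03 and -0.10 with MC2494 against control, and neither passed the test. ZNF326 encodes a partner of DBC1, a protein known to inhibit SIRT1.

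Neighbouring genes were followed along the chromosomes, in RefSeq order, as runs of ZNF genes with at most 1 other protein-coding gene between them. That gap was taken after runs with 0, 1 and 2 intervening genes had been looked at; each gave 14 runs with at least 4 measured members, holding 75, 104 and 111 of them. On chromosome 10 all 5 genes from ZNF248 to ZNF33B rose with both compounds under each gap. Their log2 differences with MC2494 were 0.48 for ZNF248, 1.29 for ZNF25, 0.48 for ZNF33A, 0.99 for ZNF37A and 1.40 for ZNF33B. With EX527 they were 0.27, 1.29, 0.44, 0.86 and 1.21 in the same gene order. Runs go by order among protein-coding genes and not by distance. ZNF37A and ZNF33B lie far apart, with promoters at chr10:38094087-38094386 and chr10:42638521-42638820. ZNF33A and ZNF33B are near-identical copies, so each probe may also read the other gene. A dimmer ZNF37A probe, detected on 4 arrays, had -0.09 with MC2494 and 0.02 with EX527 and did not pass the test.

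ZNF25 had 9.48, 9.27, 9.53 and 9.49 on MC2494 arrays, 9.53, 9.49, 9.40 and 9.35 on EX527 arrays and 8.12, 8.12, 8.24 and 8.14 on control arrays. Both compounds were above all control arrays and overlapped, with a 95% interval of -0.14 to 0.14 for the log2 difference between MC2494 and EX527.

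The promoters of these 5 genes are printed because the genes moved together, and those of ZNF425 and ZNF467 because they had the 2 largest rises with MC2494 and that of ZNF341 because it had the largest fall. Each runs from 250 bases before to 50 after the gene's start, from RefSeq on GRCh38.p14, read 5′ to 3′ along the gene. They lie at chr7:149126275-149126574 on the minus strand, chr7:149773539-149773838 on the minus strand, chr10:37858054-37858353 on the minus strand, chr10:37976598-37976897 on the minus strand, chr10:38010425-38010724 on the plus strand, chr10:38094087-38094386 on the plus strand, chr10:42638521-42638820 on the minus strand and chr20:33731746-33732045 on the plus strand. Capitals mark matches, on either strand, to 7 motifs. These are the CCAAT box (CCAAT), the core of the site for the factor NRF1 (TGCGCA), the GC box bound by SP factors (GGGCGG) and the core of the site for factors of the ETS family (CCGGAAG). The remaining motifs are the TATA box (written TATAAA), the composite site for the stress factors ATF4 and CHOP (written TGATGNAA) and the cyclic AMP response element (written TGACGTCA).
ZNF425: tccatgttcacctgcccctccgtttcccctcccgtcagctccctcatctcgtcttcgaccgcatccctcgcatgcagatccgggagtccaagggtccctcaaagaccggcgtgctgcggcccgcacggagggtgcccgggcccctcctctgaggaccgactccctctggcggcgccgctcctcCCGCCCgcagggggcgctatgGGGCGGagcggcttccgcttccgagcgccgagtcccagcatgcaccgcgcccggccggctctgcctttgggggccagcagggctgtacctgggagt
ZNF467: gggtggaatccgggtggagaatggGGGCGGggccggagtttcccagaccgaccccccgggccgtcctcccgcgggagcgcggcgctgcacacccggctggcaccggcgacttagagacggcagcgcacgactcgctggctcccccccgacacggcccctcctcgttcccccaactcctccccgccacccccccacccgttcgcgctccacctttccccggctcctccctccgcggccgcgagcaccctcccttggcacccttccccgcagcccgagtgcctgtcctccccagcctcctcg
ZNF248: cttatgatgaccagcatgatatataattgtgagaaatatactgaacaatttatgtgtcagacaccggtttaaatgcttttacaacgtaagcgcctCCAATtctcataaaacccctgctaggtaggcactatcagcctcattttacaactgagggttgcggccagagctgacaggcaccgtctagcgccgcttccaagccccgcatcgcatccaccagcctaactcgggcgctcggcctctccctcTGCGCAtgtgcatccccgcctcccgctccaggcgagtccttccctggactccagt
ZNF25: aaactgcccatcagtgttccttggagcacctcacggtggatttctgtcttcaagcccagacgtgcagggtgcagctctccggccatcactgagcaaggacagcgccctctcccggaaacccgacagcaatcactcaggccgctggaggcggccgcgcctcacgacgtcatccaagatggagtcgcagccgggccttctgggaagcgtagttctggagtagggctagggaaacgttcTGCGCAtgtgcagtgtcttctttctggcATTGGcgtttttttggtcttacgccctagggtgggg
ZNF33A: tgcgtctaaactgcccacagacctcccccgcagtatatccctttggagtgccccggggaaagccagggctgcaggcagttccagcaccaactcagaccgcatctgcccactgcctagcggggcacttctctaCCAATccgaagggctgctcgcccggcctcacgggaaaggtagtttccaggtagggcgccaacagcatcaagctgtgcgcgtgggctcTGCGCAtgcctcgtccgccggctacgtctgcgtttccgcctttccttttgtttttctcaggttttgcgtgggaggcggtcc
ZNF37A: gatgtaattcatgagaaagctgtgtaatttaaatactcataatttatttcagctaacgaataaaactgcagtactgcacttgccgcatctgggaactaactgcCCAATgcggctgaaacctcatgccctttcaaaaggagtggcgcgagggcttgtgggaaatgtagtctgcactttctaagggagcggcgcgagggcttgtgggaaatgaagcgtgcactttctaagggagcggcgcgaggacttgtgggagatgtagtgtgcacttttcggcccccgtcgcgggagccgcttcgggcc
ZNF33B: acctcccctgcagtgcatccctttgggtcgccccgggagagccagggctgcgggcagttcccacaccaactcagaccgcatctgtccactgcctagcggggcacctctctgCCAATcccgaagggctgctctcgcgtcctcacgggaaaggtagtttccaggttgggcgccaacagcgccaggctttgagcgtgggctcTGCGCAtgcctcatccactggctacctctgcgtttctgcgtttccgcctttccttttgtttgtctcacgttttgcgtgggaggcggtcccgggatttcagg
ZNF341: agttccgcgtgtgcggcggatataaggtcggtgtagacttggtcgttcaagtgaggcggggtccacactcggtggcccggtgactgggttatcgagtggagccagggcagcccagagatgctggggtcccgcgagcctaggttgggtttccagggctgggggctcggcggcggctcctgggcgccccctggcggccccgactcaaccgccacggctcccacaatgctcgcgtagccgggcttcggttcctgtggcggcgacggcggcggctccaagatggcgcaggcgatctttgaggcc

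The promoters shown and the motifs marked were chosen after the values and the matches had been seen. The first choice marked 5 motifs, which left 3 of the 8 promoters shown without a match, and the NRF1 core and the GC box were then added, which left 1, that of ZNF341. All 5 chromosome 10 promoters held 1 CCAAT, and 4 of them, all but that of ZNF37A, held 1 TGCGCA. ZNF425 held 2 GC boxes and ZNF467 held 1. In all, 18 motifs were searched, so matches picked out here are descriptions only.

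Of the 248 genes, 216 had a promoter in the RefSeq table. CCAAT was in 47.7% of these ZNF promoters, beside 37.2% of promoters of the other genes tested and 35.7% of all promoters. TGCGCA was in 17.6%, beside 14.0% and 8.42%. GGGCGG was in 65.7%, beside 69.0% and 44.6%. CCGGAAG, found in none of the 8 promoters printed, was in 39.4% of ZNF promoters, beside 19.1% and 10.7%, and TATAAA was in 2.78%, beside 5.86% and 12.0%. TGATGNAA was in 2.31% of ZNF promoters, beside 1.83% and 3.67%, and TGACGTCA in 5.56%, beside 3.34% and 1.98%.

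On chromosome 7 the run from ZNF786 to ZNF467 looked different from that on chromosome 10. Of its 7 measured genes, 2 rose with MC2494, ZNF425 and ZNF467, and 1 fell, while the run's median log2 difference was 0.09. With no intervening gene allowed the run ended at ZNF746, without ZNF467.

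Counts in the runs on chromosomes 10, 7 and 19 stand beside 37.5% of all genes higher and 35.0% lower with MC2494 and 25.9% and 31.0% with EX527, and they are descriptions, since some members on chromosome 19 entered only through the treated arrays. These are ZNF563 in the run from ZNF627, ZNF573 in the run from ZNF566, and ZNF613, ZNF649, ZNF766 and ZNF611 in the run from ZNF577. On chromosome 19, 7 of 8 measured genes from ZNF627 to ZNF791 rose with each compound and 0 fell, with median log2 differences of 0.56 with MC2494 and 0.40 with EX527. From ZNF577 to ZNF816, 10 of 14 rose with MC2494 and 8 with EX527, and 0 fell. From ZNF566 to ZNF573, 5 of 6 rose with MC2494 and 4 with EX527. The run from ZNF584 to ZNF446 went the other way, with 2 of 4 lower and 0 higher with each compound. The run with the most measured members, ZNF805 to ZNF274, was mixed: 7 of 18 rose and 4 fell with MC2494, and 3 rose and 2 fell with EX527. Genes of a run share sequence, so probes of close copies may read each other's transcripts.

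**Figure D4:**
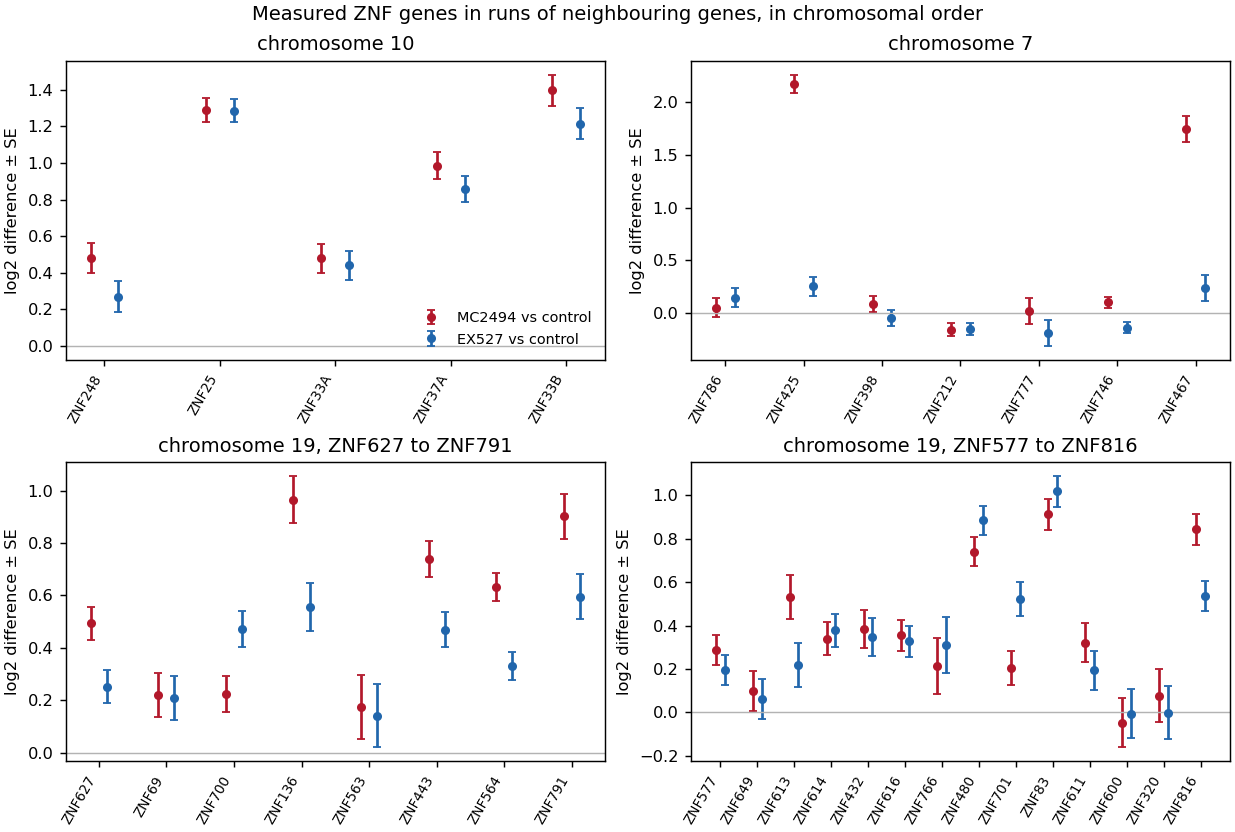
Log2 difference against control (y axis, with SE) of measured ZNF genes in chromosomal order (x axis) in 4 runs of neighbours, for MC2494 (red) and EX527 (blue). All 5 genes of the chromosome 10 run are above 0 with both compounds, while on chromosome 7 ZNF425 and ZNF467 stand above their neighbours with MC2494.

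Zinc finger genes under other names were counted in the same way, beside 37.5% of all genes higher and 35.0% lower with MC2494 and 25.9% higher and 31.0% lower with EX527. Of 28 ZBTB genes, whose BTB domain mediates dimerization, 13 rose and 3 fell with MC2494 (46.4% and 10.7%), and 5 rose and 6 fell with EX527 (17.9% and 21.4%). Of 16 ZSCAN and ZKSCAN genes, 6 rose (37.5%) and 4 fell with MC2494, and 2 rose (12.5%) and 5 fell (31.2%) with EX527, so the share higher with MC2494 and the share lower with EX527 were at the level of all genes. Of 7 ZFP genes, 4 rose and 1 fell with MC2494, and 5 rose and 0 fell with EX527. The difference between these groups and ZNF genes was not tested.

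Genes listed as KRAB corepressors or related chromatin genes fell more often than they rose with MC2494. Of 30 listed corepressor genes 28 had a probe past the detection filter, all but ATF7IP and MBD3. The list was drawn up with earlier results of these data known, so counts over it are descriptions. With MC2494, 5 rose and 19 fell (17.9% and 67.9%, against 37.5% and 35.0% of all genes), with a median log2 difference of -0.41. With EX527, 8 rose and 11 fell (28.6% and 39.3%, against 25.9% and 31.0%), near the level of all genes, with a median of -0.14. Between MC2494 and EX527, 2 were higher and 18 lower (7.14% and 64.3%, against 33.1% and 28.9%), with a median of -0.29.

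TRIM28, the scaffold itself, averaged 9.38 ± 0.11 on MC2494 arrays, 9.82 ± 0.04 on EX527 arrays and 10.31 ± 0.05 on control arrays (log2, SD, n = 4 each). The groups' means lay further apart than their SDs, and TRIM28 fell by 0.94 with MC2494 and by 0.50 with EX527 on the log2 scale (limma, adjusted p = 4.19e-09 and 8.93e-06). UHRF1, which recognises hemimethylated DNA, SUV39H1, a histone H3 lysine methyltransferase, and DNMT1, the maintenance DNA methyltransferase, had log2 differences of -1.94, -1.18 and -0.98 with MC2494. With EX527 they were -0.62, -0.28 and 0.01, the last of which did not pass the test (adjusted p = 0.924). SETDB1, a histone methyltransferase, had -0.23 with MC2494 and 0.07 with EX527, the latter not passing the test. The deacetylase genes HDAC1 and HDAC2 had 0.05 and 0.14 with MC2494, neither passing the test. With EX527 they had -0.17 and 0.19, and both passed. MORC3 and TRIM33 rose with both compounds, by 1.20 and 0.88 with MC2494 and by 0.89 and 0.85 with EX527. SMARCAD1, a chromatin remodeller that binds TRIM28, and MPHOSPH8, a subunit of the HUSH silencing complex, rose by 0.55 and 0.37 with MC2494 and by 1.11 and 0.65 with EX527. Whether the change in these genes bears on that in ZNF genes was not tested.

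**Figure D5:**
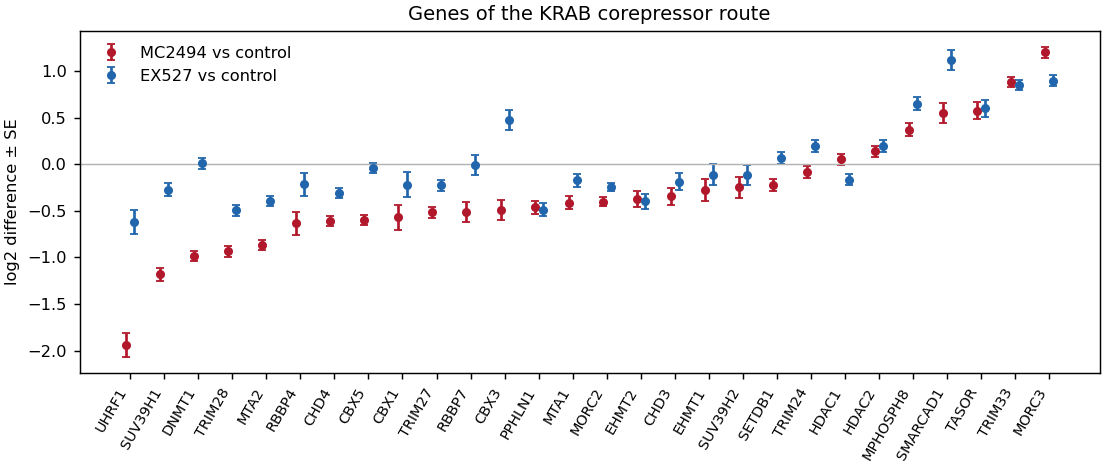
Log2 difference against control (y axis, with SE) of 28 corepressor genes (x axis, ordered by the MC2494 value), for MC2494 (red) and EX527 (blue). With MC2494 19 genes are lower and 5 higher past the test, with UHRF1 lowest and MORC3 highest.

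Where a gene had several probes, they mostly pointed one way. Of 30 ZNF genes with several kept probes, all probes had the same sign in 22 genes with MC2494 and in 20 with EX527 against control, and in 20 between MC2494 and EX527. ZNF789 was the 1 gene with probes called in opposite directions, with log2 differences of 0.21 and -0.19 between MC2494 and EX527. Among the 6 ZNF probes with the highest mean signal were those of ZNF207, which encodes a mitotic spindle protein, and of ZNF593, whose yeast counterpart works in ribosome assembly. ZNF207 fell by 0.49 with MC2494 and by 0.23 with EX527, and ZNF593 fell by 0.20 and 0.49, on the log2 scale. The ZNF593 call with MC2494 was lost without control array 2 (-0.16) and without MC2494 array 4 (-0.18). ZNF430, also among the 6, had 0.45 with MC2494 and 0.22 with EX527, and neither call held with median scaling (0.12 and 0.07) or with no scaling (0.12 and 0.11).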

How the data were processed

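Gene expression was measured on Illumina BeadChips with total RNA of U937 cells, 12 arrays in 3 groups taken from the treatment labels. The deposited table gives an intensity and a detection p-value per probe and array, per the file headers; its values are linear and differ in distribution between arrays, so they had not been normalized, and 0 columns of array values were left unused. A further deposited table holds log2 values made by the authors, with limma named in the submitters' processing notes, and served as an alternative. The scanner software is not given in the sources used here. Precision is limited by the 4 arrays per group.

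In R 4.3.3, the neqc function of limma 3.58.1 corrected the intensities (background from the detection p-values, offset 16), quantile normalized them and took log2. Of 24526 probes, 13174 were detected (p under 0.05) on at least 4 arrays, and 11959 of these carried a gene symbol in the platform annotation, checked against RefSeq of GRCh38.p14. The brightest kept probe stood for each of 9956 genes. Group means were estimated in 1 linear model over all 12 arrays (lmFit, eBayes), with Benjamini-Hochberg adjustment over all genes; it was tested on simulated data. A gene detected on no array of a group has a bound there, from the lowest detected signal of each array.

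Members, lists, motifs and neighbour runs were chosen with earlier results of these data known. Named genes were, per comparison, the 10 largest rises and 10 largest falls past the threshold whose groups did not overlap, the 6 with the highest signal, genes with probes called in opposite directions, genes called in opposite directions by the compounds, and the 4 largest corepressor changes; the genes of the chromosome 10 run were named for their place, and others in a run or list after their values were seen. No protein sequences were used here, so genes are not classed by domain. Alternatives covered scaling, background, detection filter, probe choice, variance model, threshold, blocks and each array left out.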

Additional observations from a re-analysis of the deposited data

Results flagged for a closer look

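In 8 of 168 groups of 4 arrays checked, over 53 ZNF genes named and 3 array measures (the ZNF median, ZNF probes detected and mean raw signal), 1 array lay far from the other 3; chance gives about 1 in 20. The share of the group's range taken by that gap was 0.860 for ZNF326, 0.840 for ZNF444 and 0.951 for ZNF83 on MC2494 arrays. It was 0.844 for ZNF12, 0.951 for ZNF2 and 0.846 for ZNF93 on EX527 arrays, and 0.910 for ZNF503 and 0.935 for ZNF514 on control arrays. The whole range was narrow in some of them: the EX527 arrays of ZNF2 had 7.37, 7.32, 7.32 and 7.32. In ZNF503 control array 4 had 8.62 and the other control arrays 8.88 to 8.90, all above the MC2494 and EX527 arrays. In ZNF12 EX527 array 3 had 7.99 and the other EX527 arrays 7.47 to 7.55, all above the control arrays.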

How the results depend on the processing

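Counts of ZNF and corepressor genes stayed within 1.5 times the reported value under the alternatives run, except that ZNF genes higher with MC2494 than with EX527 numbered 44 with no scaling, against 88, and corepressor genes higher in that comparison 1 with median scaling and 0 with no scaling, against 2. The ZNF median log2 difference with MC2494 against control was 0.11 with median scaling, 0.11 with no scaling, 0.10 with no background correction, 0.10 with the authors' log2 values and 0.019 with no detection filter. With EX527 against control it was 0.11 with no scaling, 0.037 with no background correction, 0.037 with the authors' log2 values, 0.022 for genes detected on all 12 arrays and 0.015 with no detection filter. Between MC2494 and EX527 it was 0.037 with median scaling, 0.023 with no detection filter and -0.0065 with no scaling, a change of sign. The median of all genes in that comparison moved as well, from 0.021 to -0.095 with no scaling. The ZNF median less that of all genes was 0.078 as reported and 0.089 with no scaling. The cause of the change of sign was not tested. Over all genes, 51.7% of calls were higher with MC2494 against control, beside 43.1% with median scaling and 42.5% with none.

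Leaving out 1 array at a time gave 105 to 112 ZNF genes higher and 44 to 50 lower with MC2494, 73 to 84 and 36 to 47 with EX527, and 80 to 89 and 34 to 39 between MC2494 and EX527. With group means taken out, same-numbered arrays correlated at -0.043 to 0.185, with 4 of 12 pairs over 0.1, and the samples were not treated as paired. Some pairs with different numbers went further: 0.261 for MC2494 array 1 with EX527 array 2, and 0.204 for MC2494 array 3 with EX527 array 4. MC2494 array 4 with EX527 array 2 had -0.208, while EX527 array 3 with control array 1 had 0.113. With the replicate number as a block, 111 ZNF genes rose and 49 fell with MC2494, 82 and 47 with EX527, and 92 and 35 between them. A block of arrays 1 and 2 against 3 and 4, chosen after seeing the data, gave 110 and 49, 85 and 47, and 88 and 41. Of 2488 alternatives for 104 results on single genes, 60 lost a call and 14 gained one. Among results called in the reported or the alternative fit, 0 changed sign. Changes of sign in results called in neither were not counted.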
